A study of Mus musculus with 6 samples.

Results

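The growth hormone axis of the fasted mouse liver was followed through 10 genes: the growth hormone receptor gene *Ghr*, the signal transducer gene *Stat5b*, the feedback inhibitor genes *Socs2* and *Cish*, *Igf1*, *Igfals*, and the binding protein genes *Igfbp1*, *Igfbp2*, *Igfbp3* and *Igfbp4*. They were chosen by name for their place in the axis, with earlier results of these data known, and are 10 of the 45777 genes in the expression table. All 10 passed the filter on low counts. In mice lacking *Pak4* in hepatocytes, *Igfbp1*, *Igfbp2* and *Igfbp3* rose, and *Ghr*, *Cish* and *Igfals* fell. The values of *Cish* overlapped between genotypes by a small margin. The differences in *Cish* and *Igfbp1* no longer passed the threshold when certain single mice were left out. The level of *Igf1* relative to its binding protein transcripts was lower in all 3 LKO mice, without overlap with WT. With 3 against 3 mice, the permutation test of these ratios could not pass the threshold.

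RNA was sequenced from whole liver of 3 WT and 3 LKO mice, all C57BL/6 males aged 8 weeks and fasted for 24 h, with 1 library per mouse. WT mice were *Pak4* flox/flox littermates, and LKO mice were Alb-Cre; *Pak4* flox/flox, so that both genotypes carried the floxed alleles and LKO mice alone carried Cre. Cre is made from the albumin promoter, which is active in hepatocytes. Which cells of the liver kept *Pak4* cannot be read from whole liver. An effect of Cre itself cannot be told apart from one of the loss of *Pak4*. Fed mice were not analysed here.

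Growth hormone from the pituitary binds its receptor on hepatocytes, where the kinase JAK2 phosphorylates STAT5B. STAT5B then enters the nucleus and switches on genes that include *Igf1*, *Igfals* and the feedback inhibitors *Socs2* and *Cish*. IGF1 circulates in complexes with IGF-binding proteins. Most of it is held in a ternary complex with IGFBP3 or IGFBP5 and the acid-labile subunit, which is encoded by *Igfals*, while IGFBP1 and IGFBP2 form smaller complexes and are known to rise in liver when insulin is low. Fasting is known to make the liver resistant to growth hormone.

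The total counts were 45934632 to 55205564 in WT against 53936281 to 59576437 in LKO mice. Read counts were scaled by TMM, which sets libraries on a common scale through their shared genes, and are given as CPM, the counts scaled to a common library size. The TMM factors did not overlap, at 1.28 to 1.43 in WT against 0.639 to 0.816 in LKO mice. 7SL RNA, a small non-coding RNA, took 4.55% to 5.24% of the counts in WT against 11.2% to 15.8% in LKO mice. When libraries were scaled by total counts instead, the median log2 fold change of all 18636 genes tested was −0.90, against −0.04 with TMM. Directions are therefore also given below relative to the median of each scaling. The scalings differ by nearly the same amount for every gene, so the values relative to the medians nearly agree by arithmetic. Their agreement is no added evidence for a direction. The part of library composition in the differences between genotypes was not tested. *Pak4* had read counts of 268, 210 and 271 in WT against 85, 52 and 149 in LKO mice. After TMM it was at 3.59, 3.21 and 4.1 CPM in WT and at 1.93, 1.49 and 3.22 CPM in LKO mice, so that LKO mouse 3 lay within the WT range. On the log2 scale LKO minus WT was −0.71 (SE 0.31, quasi-likelihood test of edgeR, adjusted p = 0.10), −1.54 with total counts (adjusted p = 0.0056) and −1.08 without LKO mouse 3 (adjusted p = 0.015, edgeR for both). The table holds 1 count per gene, so that the floxed part of *Pak4* could not be read alone. All 10 hepatocyte markers were expressed in all 6 mice, with a summed level of 46700 to 49400 CPM in WT against 120000 to 138000 CPM in LKO mice. After TMM the sum over all genes tested also differed, at 702000 to 779000 CPM in WT against 1230000 to 1570000 CPM in LKO mice. In whole liver, fewer cells of a type and less RNA per cell cannot be told apart.

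DNA upstream of or at the start of 3 members is shown because it holds letters through which the factors of this axis are known to bind. STAT5 is known to bind TTCNNNGAA, a motif that is its own reverse complement, and FOXO factors, which are active when insulin is low, are known to bind the core CAAAACA. Windows from 250 bases before to 50 bases after annotated starts were taken from RefSeq (GRCm38.p6) for 9 of the 10 members, 14 windows in all, and both strands were searched. TTCNNNGAA was in 3 of these 14 windows, those of *Cish* and *Igfals*, against 8.3% of all 32851 windows. CAAAACA was in 1 window, that of *Igfbp1*, against 6.28% of all windows. The motifs do not overlap each other in these stretches, and a match describes the letters and not the binding of a factor. The stretches are written 5′ to 3′ on the plus strand, with the matches in capitals.
Cish, chr9:107296654-107296683: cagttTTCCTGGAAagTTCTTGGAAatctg
Igfals, chr17:24878081-24878210: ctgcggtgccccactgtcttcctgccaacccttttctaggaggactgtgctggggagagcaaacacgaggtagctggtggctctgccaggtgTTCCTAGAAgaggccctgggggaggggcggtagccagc
Igfbp1, chr11:7197637-7197766: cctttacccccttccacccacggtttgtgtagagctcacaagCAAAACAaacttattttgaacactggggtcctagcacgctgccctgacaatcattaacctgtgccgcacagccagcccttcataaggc
In *Cish*, a gene of the plus strand, the matches TTCCTGGAA and TTCTTGGAA cover bases 1 to 9 and 12 to 20 counted from the annotated start, within an exon of GENCODE M21. In *Igfals*, the match TTCCTAGAA covers bases −58 to −50 relative to the start at position 24878231, in an intron of longer transcripts. In another window of *Igfals*, TTCTCAGAA covers bases −236 to −228. In *Igfbp1*, CAAAACA covers bases −108 to −102 relative to the start at position 7197787, outside transcripts.

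Of all 18636 genes tested, 40.1% were called at an adjusted p-value under 0.05 by the quasi-likelihood test of edgeR after Benjamini-Hochberg adjustment, 19.6% higher and 20.5% lower in LKO mice. Among the members, 3 of 10 were called higher, 3 of 10 were called lower and 4 of 10 were not called. In 7 of the 10 the values of the genotypes did not overlap, against 54.0% of all genes tested. The median log2 fold change of the members was −0.17, against −0.04 for all genes. With total counts, 57.6% of all genes were called, and among the members the same 3 were called higher and 5 were called lower, with *Stat5b* and *Igf1* added.

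**Figure D1:**
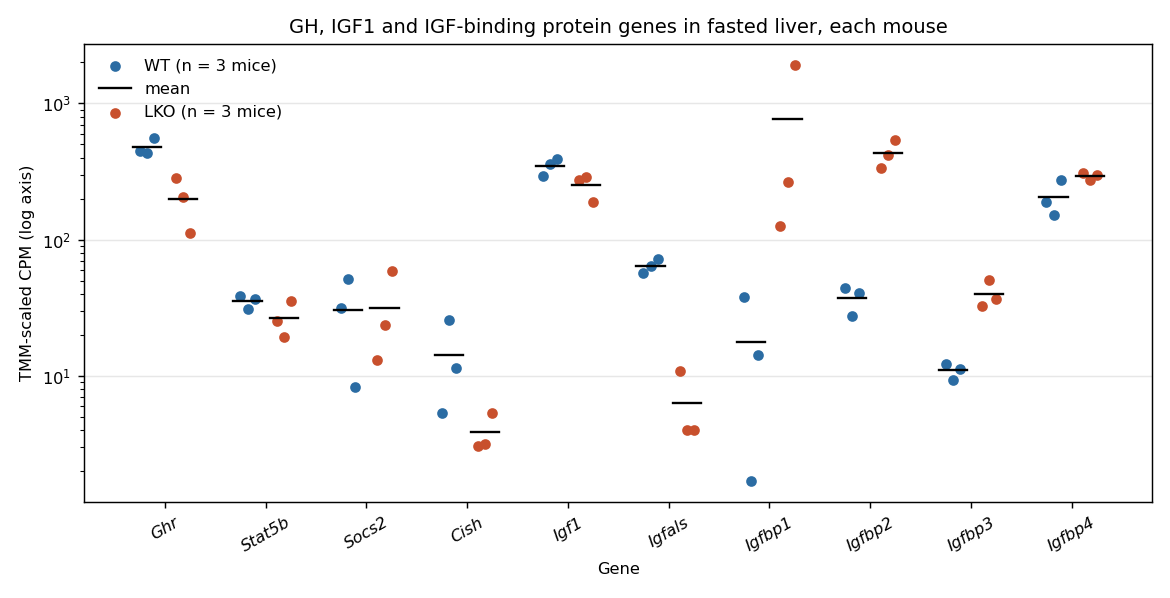
TMM-scaled CPM of each member in each mouse on a log axis, with 1 point per mouse, WT beside LKO, and a line at the mean of each genotype. The points of the genotypes are apart for Ghr, Igf1, Igfals and the Igfbp genes and overlap for Stat5b, Socs2 and, by a small margin, Cish.

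*Ghr*, Entrez gene 14600, spans 3317755 to 3583352 on the minus strand of chromosome 15 and encodes the receptor that takes up the hormone signal at the cell surface. It was at 449, 432 and 559 CPM in WT mice 1, 2 and 3 and at 284, 204 and 111 CPM in LKO mice 1, 2 and 3. Every LKO mouse lay under every WT mouse, and LKO mouse 3 was the lowest. WT mice averaged 480 ± 68.9 CPM and LKO mice 200 ± 86.5 CPM (SD, n = 3 each), a level 2.4-fold lower. The log2 fold change was −1.26 (95% interval −1.99 to −0.54, quasi-likelihood test of edgeR, adjusted p = 0.014). *Ghr* was called lower in all 20 alternatives tried, with −2.11 for total counts, and it was −1.23 with TMM and −1.21 with total counts relative to the median of all genes. Without each mouse in turn its log2 fold change was −1.61 to −0.98. The call was just under the threshold without WT mouse 3 (adjusted p = 0.0499) and without LKO mouse 2 (adjusted p = 0.049, edgeR for both).

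*Stat5b*, Entrez gene 20851, spans 100780731 to 100859004 on the minus strand of chromosome 11 and encodes the main transducer of the signal in liver. It was at 38.9, 31.2 and 36.4 CPM in WT and at 25.3, 19.4 and 35.6 CPM in LKO mice. LKO mouse 3 lay among the WT mice, and the other LKO mice lay under them. The log2 fold change was −0.41 (95% interval −0.91 to 0.10, quasi-likelihood test of edgeR, adjusted p = 0.18), and without LKO mouse 3 it was −0.67 (edgeR, adjusted p = 0.020). With total counts it was −1.24 (adjusted p = 0.0043, edgeR), and relative to the median of all genes −0.37 with TMM and −0.34 with total counts. *Stat5a*, the close relative of *Stat5b*, begins 346 bases away on the opposite strand. It was at 8.03, 5.69 and 9.27 CPM in WT and at 4.23, 2.15 and 2.68 CPM in LKO mice, without overlap, and fell with a log2 fold change of −1.34 (SE 0.30, edgeR, adjusted p = 0.0083). Reads could be shared where the sequences of these copies match.

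The feedback inhibitors differed from each other. *Cish*, Entrez gene 12700, spans 107296659 to 107302784 on the plus strand of chromosome 9, where the paired matches shown above lie at its start, and encodes a SOCS family protein that STAT5 is known to induce. It was at 5.35, 25.7 and 11.4 CPM in WT and at 3.07, 3.15 and 5.38 CPM in LKO mice. The spread among WT mice was wide, and LKO mouse 3 and WT mouse 1 were at nearly the same level, so that the ranges touched. WT mice averaged 14.1 ± 10.4 CPM and LKO mice 3.87 ± 1.31 CPM (SD, n = 3 each), 3.64-fold lower. The log2 fold change was −1.87 (95% interval −3.06 to −0.67, quasi-likelihood test of edgeR, adjusted p = 0.022). The call was lost without WT mouse 2, where the log2 fold change was −1.13 (adjusted p = 0.065), without LKO mouse 1 (−1.72, adjusted p = 0.065) and without LKO mouse 2 (−1.74, adjusted p = 0.088, edgeR for all).

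*Socs2*, Entrez gene 216233, spans 95383903 to 95417321 on the minus strand of chromosome 10 and encodes a protein that is known to limit growth hormone signaling by directing its receptor to degradation. It was at 31.7, 51.3 and 8.24 CPM in WT and at 13.1, 23.5 and 58.7 CPM in LKO mice. Both genotypes held high and low mice, with the lowest value in WT mouse 3 and the highest in LKO mouse 3. This was a log2 fold change of 0.07 (95% interval −1.46 to 1.59, quasi-likelihood test of edgeR, adjusted p = 0.95), a wide interval that holds differences in either direction, and it turned to −0.83 with total counts. Without WT mouse 3 it was −0.39 and without LKO mouse 3 it was −0.74, neither called. Relative to the median of all genes, *Socs2* was 0.10 with TMM and 0.07 with total counts.

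*Igf1*, Entrez gene 16000, spans 87858265 to 87937047 on the plus strand of chromosome 10 and encodes the growth factor that liver releases into blood. It was at 293, 360 and 391 CPM in WT and at 273, 290 and 189 CPM in LKO mice. The highest LKO value, in mouse 2, was just under the lowest WT value, in mouse 1. The means were 348 ± 50.2 CPM and 251 ± 53.9 CPM (SD, n = 3 each), 1.39-fold lower in LKO mice. On the log2 scale LKO minus WT was −0.47 (95% interval −0.96 to 0.01, quasi-likelihood test of edgeR, adjusted p = 0.11), which did not pass the threshold. It was −0.29 (adjusted p = 0.32) when corrected for gene length and −1.35 with total counts (adjusted p = 0.00076, edgeR for both), and −0.44 and −0.45 relative to the median of all genes with TMM and total counts. The antisense gene *Igf1os* overlaps it, with 202 counts summed over the 6 mice against 8749 or more for *Igf1* in each.

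*Igfals* had the largest fall of the members. This gene, Entrez gene 16005 at 24877844 to 24882011 on the plus strand of chromosome 17, encodes the acid-labile subunit and is one that growth hormone is known to induce in hepatocytes. It was at 56.7, 64.5 and 71.7 CPM in WT and at 10.9, 4.04 and 4.02 CPM in LKO mice. The highest LKO mouse, mouse 1, was still far under the lowest WT mouse. The means were 64.3 ± 7.47 CPM and 6.32 ± 3.97 CPM (SD, n = 3 each), 10.1-fold lower in LKO mice. This was a log2 fold change of −3.34 (95% interval −4.24 to −2.44, quasi-likelihood test of edgeR, adjusted p = 0.00055). It was called in all 20 alternatives and was −4.16 with total counts, or −3.30 and −3.26 relative to the median of all genes with TMM and total counts.

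Of the binding protein genes, *Igfbp1* and *Igfbp3* lie on chromosome 11 with 3539 bases between their ends, on opposite strands, and both rose. *Igfbp1*, Entrez gene 16006 at 7197787 to 7202546 on the plus strand, encodes the binding protein that insulin is known to repress and whose upstream stretch with CAAAACA is shown above. It was at 37.7, 1.68 and 14.2 CPM in WT and at 127, 267 and 1920 CPM in LKO mice. Every LKO mouse lay over every WT mouse, but both genotypes varied more than in any other member, and LKO mouse 3 stood far over the others. The means were 17.8 ± 18.3 CPM and 773 ± 1000 CPM (SD, n = 3 each), 43.3-fold higher in LKO mice. On the log2 scale LKO minus WT was 5.44 (95% interval 2.34 to 8.53, quasi-likelihood test of edgeR, adjusted p = 0.014). Without LKO mouse 3 it was 3.46 (adjusted p = 0.027), and without WT mouse 3 it was 5.26 and no longer called (adjusted p = 0.055, edgeR for both).

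*Igfbp2*, Entrez gene 16008 at 72824480 to 72852474 on the plus strand of chromosome 1, encodes another small-complex binding protein. It was at 44.5, 27.6 and 40.4 CPM in WT and at 337, 416 and 543 CPM in LKO mice. The genotypes lay far apart, and within each the mice were close together. The means were 37.5 ± 8.8 CPM and 432 ± 104 CPM (SD, n = 3 each), 11.5-fold higher in LKO mice. This was a log2 fold change of 3.53 (95% interval 2.92 to 4.14, quasi-likelihood test of edgeR, adjusted p = 0.00021), 2.67 with total counts and 3.32 to 3.68 without each mouse in turn. It was called higher in all 20 alternatives.

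*Igfbp3*, Entrez gene 16009 at 7206086 to 7215498 on the minus strand, encodes the main partner of IGF1 in the ternary complex and is known to be made in liver mostly by cells other than hepatocytes. It was at 12.3, 9.38 and 11.3 CPM in WT and at 32.6, 50.6 and 36.9 CPM in LKO mice, without overlap. The means were 11 ± 1.48 CPM and 40 ± 9.38 CPM (SD, n = 3 each), 3.63-fold higher in LKO mice. On the log2 scale LKO minus WT was 1.86 (95% interval 1.40 to 2.32, quasi-likelihood test of edgeR, adjusted p = 0.00043) and 0.97 with total counts (adjusted p = 0.0014, edgeR), and on the log2(TPM + 1) scale it was 0.27 and not called by limma (adjusted p = 0.12). The partners in the ternary complex thus moved in opposite directions, with *Igfals* lower and *Igfbp3* higher.

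*Igfbp4*, Entrez gene 16010 at 99040005 to 99052655 on the plus strand of chromosome 11, encodes a binding protein known to restrain IGF1 action and was abundant in both genotypes. It was at 188, 151 and 273 CPM in WT and at 306, 275 and 299 CPM in LKO mice, where WT mouse 3 lay just under the lowest LKO mouse. This was a log2 fold change of 0.52 (95% interval 0.01 to 1.04, quasi-likelihood test of edgeR, adjusted p = 0.097), which did not pass, and without WT mouse 3 it was 0.78 (adjusted p = 0.033, edgeR). Its direction depended on the scale, with −0.32 for total counts (adjusted p = 0.26, edgeR) and −0.97 on the log2(TPM + 1) scale (adjusted p = 0.0077, limma). Relative to the median of all genes it was 0.56 with TMM and 0.58 with total counts.

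**Figure D2:**
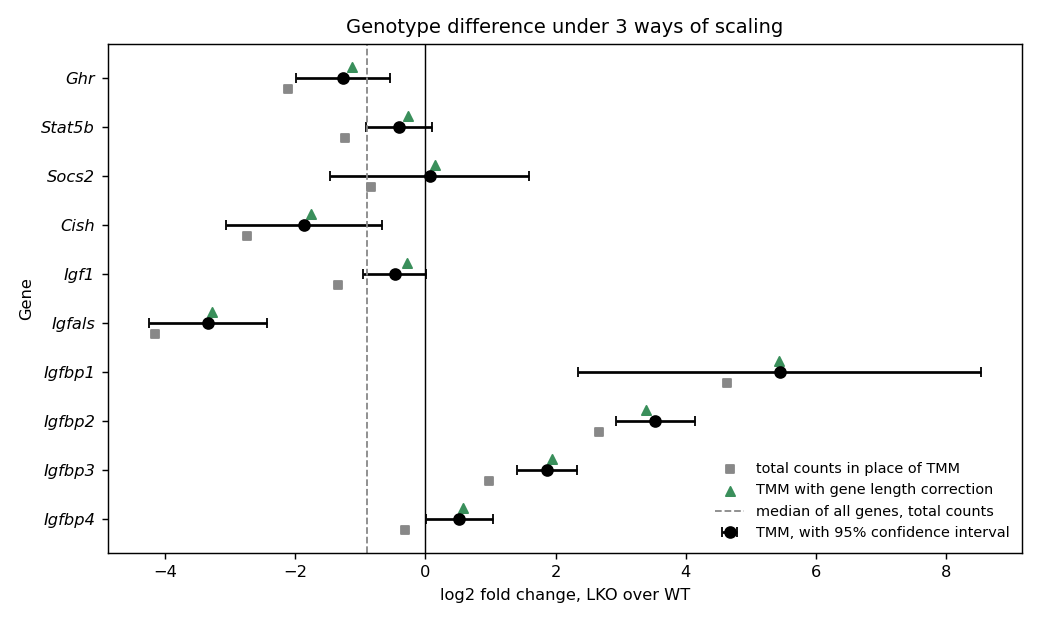
Log2 fold change of LKO over WT for each member with TMM scaling and its 95% interval, with gene length correction and with total counts, where a dashed line marks the median of all genes with total counts. Values range from −3.34 for Igfals to 5.44 for Igfbp1 with TMM, and with total counts the members shift lower together with the median of all genes.

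Levels can be compared between genes per length in FPKM, the fragments per kilobase scaled by library size, where the order of the 10 members changed. In all 3 WT mice *Ghr* ranked first, *Igfbp4* second and *Igf1* the third, with means of 155 ± 10.8, 117 ± 30.8 and 60.3 ± 8.75 FPKM (SD, n = 3). The order of *Ghr* and *Igfbp4* in WT held within each mouse, although the highest *Igfbp4* value, 151 FPKM in mouse 3, exceeded the lowest *Ghr* value, 144 FPKM in mouse 2. In LKO mice *Igfbp2* ranked first in mice 1 and 2 and second in mouse 3, at 178, 174 and 277 FPKM. *Igfbp1* was at 58.5, 97.3 and 858 FPKM and ranked first in LKO mouse 3, while *Ghr* ranked 4 and *Igf1* ranked 5 in all 3 LKO mice. The lower WT means were 36.4 FPKM for *Igfals*, 34.2 for *Igfbp2*, 16.4 for *Socs2*, 14.1 for *Igfbp1*, 8.21 for *Stat5b*, 5.72 for *Cish* and 5.44 for *Igfbp3*, and each gene overlapped its neighbor in this order over mice, whereas *Igfbp4*, *Igf1* and *Igfals* did not overlap each other. *Cish* was the lowest of the members in every LKO mouse, at 0.709, 0.575 and 1.21 FPKM. Neighbors in the order such as *Igfbp1* and *Igfbp4* in LKO mice overlapped in their values.

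Ratios of members within a mouse do not depend on how libraries are scaled, and they address how much binding protein transcript there was for each unit of *Igf1*. Of 12 ratios of FPKM, 8 did not overlap between genotypes. For each of these 8 the two-sided exact permutation test gave p = 0.1, the smallest that 3 against 3 mice allow. After Benjamini-Hochberg adjustment it was 0.15, so that none could pass the threshold. How often ratios of other gene pairs do not overlap was not computed. Of single genes tested, 54.0% did not overlap after TMM. The ratios are built from the member levels given above and are not independent of them. The ratio of *Igfbp1* to *Igf1* was 0.597, 0.0213 and 0.167 in WT and 2.15, 4.26 and 46.8 in LKO mice, so that *Igfbp1* was under *Igf1* in every WT mouse and over it in every LKO mouse. The ratio of *Igfbp2* to *Igf1* crossed 1 in the same way, from 0.807, 0.405 and 0.546 to 6.54, 7.63 and 15.1. The geometric means differed 58.6-fold for *Igfbp1* and 16.2-fold for *Igfbp2*. For *Igfbp1* this is a log2 difference of 5.87, which was 4.56 without LKO mouse 3, 4.58 without WT mouse 2, 6.78 without LKO mouse 1 and 6.98 without WT mouse 1. *Igfbp3* relative to *Igf1* was 0.121, 0.0742 and 0.0827 in WT and 0.343, 0.502 and 0.555 in LKO mice, 5.05-fold higher. *Igfbp4*, whose direction depended on scaling, was 2.09-fold higher relative to *Igf1*, at 2.16, 1.38 and 2.33 in WT and 3.75, 3.19 and 5.27 in LKO mice.

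*Igfals* and *Igf1* are both known targets of STAT5B, and their ratio separated the genotypes. It was 0.637, 0.583 and 0.598 in WT mice, a narrow range, and 0.13, 0.0453 and 0.0684 in LKO mice, 8.19-fold lower. On the log2 scale this difference was −3.03, and it was −3.44 without LKO mouse 1 and −2.68 without LKO mouse 2. The ratio of *Igfals* to *Igfbp3* was 5.25, 7.86 and 7.23 in WT and 0.38, 0.0902 and 0.123 in LKO mice, 41.4-fold lower, so that the order of these partners turned over. Its log2 difference of −5.37 was −5.99 without LKO mouse 1 and −4.95 without LKO mouse 2. *Igf1* relative to *Ghr* was 0.323, 0.458 and 0.391 in WT and 0.528, 0.738 and 0.913 in LKO mice, 1.83-fold higher. *Stat5b* relative to *Ghr* was 0.0572, 0.0535 and 0.0486 in WT and 0.0666, 0.0612 and 0.225 in LKO mice, and the log2 difference of 0.87 was 0.27 without LKO mouse 3. The ratios of *Socs2* to *Ghr* (p = 0.5), *Cish* to *Ghr* (p = 0.8), *Cish* to *Socs2* (p = 0.2) and *Igfbp1* to *Igfbp2* (p = 0.4, all by the exact permutation test) overlapped between genotypes. *Cish* was thus lower in level while its ratio to the receptor transcript was 0.0137, 0.0744 and 0.026 in WT and 0.0137, 0.0186 and 0.0604 in LKO mice.

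**Figure D3:**
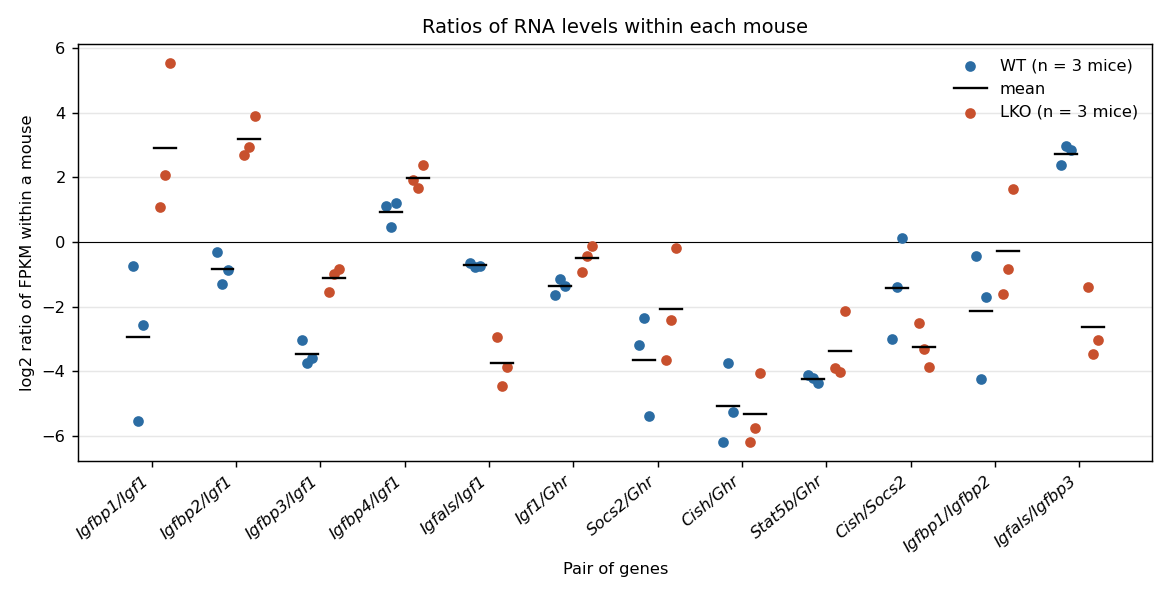
Log2 ratio of FPKM of member pairs in each mouse, with 1 point per mouse, WT beside LKO, and a line at the mean of each genotype. The ratios of binding protein genes to Igf1 are higher and the ratios of Igfals to Igf1 and to Igfbp3 are lower in all 3 LKO mice, without overlap.

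In the makeup of the binding protein transcripts, *Igfbp4* held less and *Igfbp1* and *Igfbp2* held more in all 3 LKO mice, without overlap with WT. As a share of the summed FPKM of *Igfbp1* to *Igfbp7*, *Igfbp4* made up 48.5%, 56.7% and 64.5% in WT against 27.6%, 19.3% and 7.64% in LKO mice. *Igfbp2* made up 18.1%, 16.6% and 15.1% in WT and 48.1%, 46.3% and 21.9% in LKO mice. *Igfbp1* made up 13.4%, 0.875% and 4.62% in WT and 15.8%, 25.8% and 67.9% in LKO mice, so that WT mouse 1 and LKO mouse 1 were close. In LKO mice 1 and 2 *Igfbp2* was the largest share and in LKO mouse 3 it was *Igfbp1*. *Igfbp7*, no member, made up 17.7% ± 4.64 of the WT and 4.17% ± 2.26 of the LKO total (SD, n = 3 each), while its CPM had a log2 fold change of 0.12 (adjusted p = 0.52, edgeR), which turned to −0.75 with total counts. Relative to the median of all genes, it was 0.16 with TMM and 0.15 with total counts. *Igfbp7* overlaps the expressed gene *Polr2b*. *Igfbp3* made up 2.68% ± 0.379 and 2.12% ± 1.17, which overlapped (p = 0.6, exact permutation test). Shares of *Igfbp1*, *Igfbp2*, *Igfbp4*, *Igfbp6* and *Igfbp7* did not overlap (p = 0.1 each by the two-sided exact permutation test, the smallest possible, adjusted p = 0.14 over 7 shares). Without LKO mouse 3, the difference in the share of *Igfbp1* was 14.5 percentage points, against 30.2 with it.

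**Figure D4:**
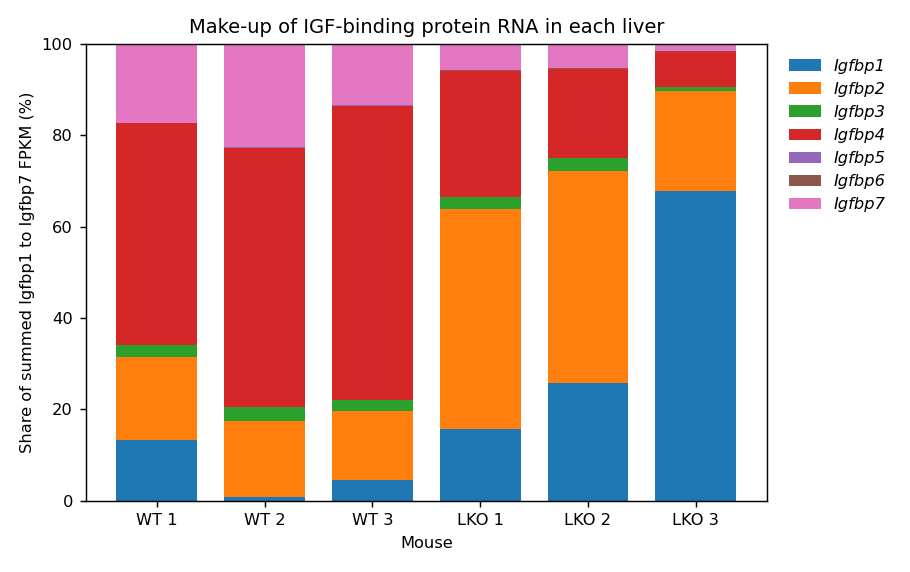
Share in percent of each of Igfbp1 to Igfbp7 in their summed FPKM, stacked per mouse for the 3 WT and 3 LKO mice. Igfbp4 holds 48.5% to 64.5% in WT against 7.64% to 27.6% in LKO mice, where Igfbp1 and Igfbp2 hold most of the rest.

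Other genes of the axis were read from lists compiled by name, also with earlier results of these data known. Of 18 genes for growth hormone signal transduction, such as *Jak2*, the SOCS genes and the phosphatases, 2 were called higher and 6 lower, with a median log2 fold change of −0.25 against −0.04 for all genes. *Onecut1*, a hepatocyte transcription factor known to respond to growth hormone, fell by 2.87 on the log2 scale (adjusted p = 0.0054, edgeR). *Irs2*, the insulin receptor substrate, was at 8.32, 2.84 and 4.55 CPM in WT and at 10.5, 8.37 and 45.2 CPM in LKO mice, with LKO mouse 3 far over the rest as for *Igfbp1*. Its log2 fold change was 2.03 (adjusted p = 0.039), and the call was lost without LKO mouse 3, where it was 0.85 (adjusted p = 0.14), and without WT mouse 2 or 3 (adjusted p = 0.13 and 0.12, edgeR for all). *Ptpn2*, a phosphatase that acts on JAK and STAT proteins, had a log2 fold change of 0.69 with TMM (adjusted p = 0.029) that turned to −0.18 with total counts and was not called without any mouse but LKO mouse 1 (adjusted p = 0.052 to 0.093, edgeR for all). Relative to the median of all genes, *Ptpn2* was 0.73 with TMM and 0.72 with total counts. Without WT mouse 1 or 3 or LKO mouse 2, 5, 4 and 5 genes of this list were called, against 8 with all mice. With total counts, 0 genes of this list were called higher and 14 lower.

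Of 14 further genes of the IGF system, 12 were tested, 5 were called higher and 1 lower, with a median log2 fold change of 0.48. With total counts the balance turned over, to 2 higher and 4 lower with a median of −0.35, and limma on log2(TPM + 1) or log2(FPKM + 1) called 1 higher and 5 lower. *Igfbp6* had read counts of 0, 5 and 4 in WT and of 71, 74 and 157 in LKO mice, and a log2 fold change of 5.68 (SE 0.69, edgeR, adjusted p = 0.0006). *Igfbp5*, the other binding protein of the ternary complex, lies 5590 bases from *Igfbp2* on the opposite strand and had a log2 fold change of 1.56 (adjusted p = 0.011), which was 0.69 with total counts (adjusted p = 0.15, edgeR for both). *Grb14*, an adaptor that restrains the insulin receptor, was at 14.6 to 17.8 CPM in WT against 32.8 to 47.1 CPM in LKO mice (log2 fold change 1.35, adjusted p = 0.00077, edgeR). *Igf2r*, the receptor that clears IGF2, was at 94.6, 80.9 and 89.5 CPM in WT and at 31.7, 26 and 12.4 CPM in LKO mice (log2 fold change −1.92, adjusted p = 0.0019, edgeR). With TMM the binding protein genes *Igfbp5* and *Igfbp6* were thus called higher, as were the members *Igfbp1*, *Igfbp2* and *Igfbp3*. *Igfbp4* and *Igfbp7* were not called.

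The pulsed growth hormone of males is known to raise a set of liver genes and to hold down others that are higher in females. Of 19 male-biased genes, 18 were tested, 4 were called higher and 6 lower, with a median of −0.64. *Hsd3b5*, a steroid dehydrogenase gene, was at 54.4, 85.0 and 99.8 CPM in WT and at 3.02, 2.06 and 2.21 CPM in LKO mice (log2 fold change −5.03, adjusted p = 0.00011, edgeR). *Elovl3*, a fatty acid elongase gene, and *Selenbp2* had log2 fold changes of −3.34 (adjusted p = 0.0063) and −3.22 (adjusted p = 0.00068, edgeR for both). Members of this list that rose included *Mup1* with 1.99 (adjusted p = 0.012) and *Mup3* with 1.71 (adjusted p = 0.0045, edgeR for both). Both belong to the urinary protein family, which holds near-identical copies, so that values are uncertain where sequences match. How far this affects either gene was not tested. *Slco1a1*, a transporter gene, was 0.93 higher (adjusted p = 0.021) and 0.05 with total counts (adjusted p = 0.85), and it was not called without WT mouse 1 or 2 or LKO mouse 2 (adjusted p = 0.071 to 0.073, edgeR for all).

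Of 22 female-biased genes, 18 were tested, 8 were called higher and 3 lower, with a median of 1.10. The filter on zero counts left out *Cyp2b9*, *Cyp2b13* and *Hao2*, whose read counts were lower in LKO mice. *Cyp2b9* had 2363, 627 and 280 in WT and 0, 0 and 3 in LKO mice. The filter also left out *Sult3a1*, with 0, 0 and 0 in WT and 38, 47 and 25 in LKO mice. Without a filter, 9 genes of this list were called higher and 6 lower, and with filterByExpr 11 higher and 6 lower. *Cyp2b10* and *Cyp3a16*, P450 genes with close copies, had log2 fold changes of 2.70 (adjusted p = 0.048) and 2.14 (adjusted p = 0.031), which were 1.84 (adjusted p = 0.11) and 1.15 (adjusted p = 0.12, edgeR for all) with total counts. *Acot3*, a thioesterase gene, fell by 2.52 on the log2 scale (adjusted p = 0.019, edgeR). The calls were lost for *Cyp2b10* without WT mouse 2 or 3 or LKO mouse 2 or 3 (adjusted p = 0.075 to 0.20), for *Cyp3a16* without any WT mouse (0.077 to 0.094) and for *Acot3* without WT mouse 1 or 3 or LKO mouse 2 (0.053 to 0.079, edgeR for all). Without LKO mouse 3, the log2 fold change of *Cyp2b10* was 1.35. *Cyp3a16* was at 3.42, 3.39 and 2.75 CPM in WT and at 5.84, 31.5 and 5 CPM in LKO mice, with LKO mouse 2 far over the rest. Without each mouse in turn, the log2 fold change of *Cyp3a16* was 0.76 to 2.54. In all, 7 genes of the list were called without WT mouse 3, against 11 with all mice. With total counts, 3 genes of this list were called higher and 4 lower, and 2 male-biased genes higher and 13 lower. Over all genes tested, 10.9% of the calls with total counts were higher, against 49.0% of those with TMM, so that the split of the male-biased list with total counts was near that of all genes.

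Genes of fasting and of FOXO factors, the setting in which *Igfbp1* is known to rise, were mixed. Of 14 genes tested, 4 were called higher and 2 lower, with a median of 0.57, and with total counts 0 were called higher and 3 lower. *Ppargc1a*, the coactivator gene of gluconeogenesis, was at 8.62, 9.4 and 6.79 CPM in WT and at 18.9, 18 and 110 CPM in LKO mice (log2 fold change 2.56, adjusted p = 0.017, edgeR). *Sesn1*, a sestrin gene, was at 11.4 to 14.2 CPM in WT and at 17.2, 20.1 and 113 CPM in LKO mice, and *Pdk4*, which spares pyruvate, at 1.8 to 6.37 CPM in WT and at 9.13, 12 and 25.3 CPM in LKO mice. In each of these 3 genes, as in *Igfbp1*, LKO mouse 3 was the highest of the 6 mice. *Sesn3* fell by 1.57 on the log2 scale (adjusted p = 0.0029) and *Foxa2* fell by 0.94 (adjusted p = 0.032, edgeR for both). In all, 2, 3 and 3 genes of this list were called without WT mouse 1, 2 or 3, against 6 with all mice. Leaving out any WT mouse lost the calls of *Ppargc1a* (adjusted p = 0.052 to 0.062) and *Sesn1* (0.10 to 0.12), leaving out WT mouse 3 lost that of *Pdk4* (0.059), and leaving out WT mouse 1 or 2 or LKO mouse 2 or 3 lost that of *Foxa2* (0.064 to 0.11, edgeR for all).

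**Figure D5:**
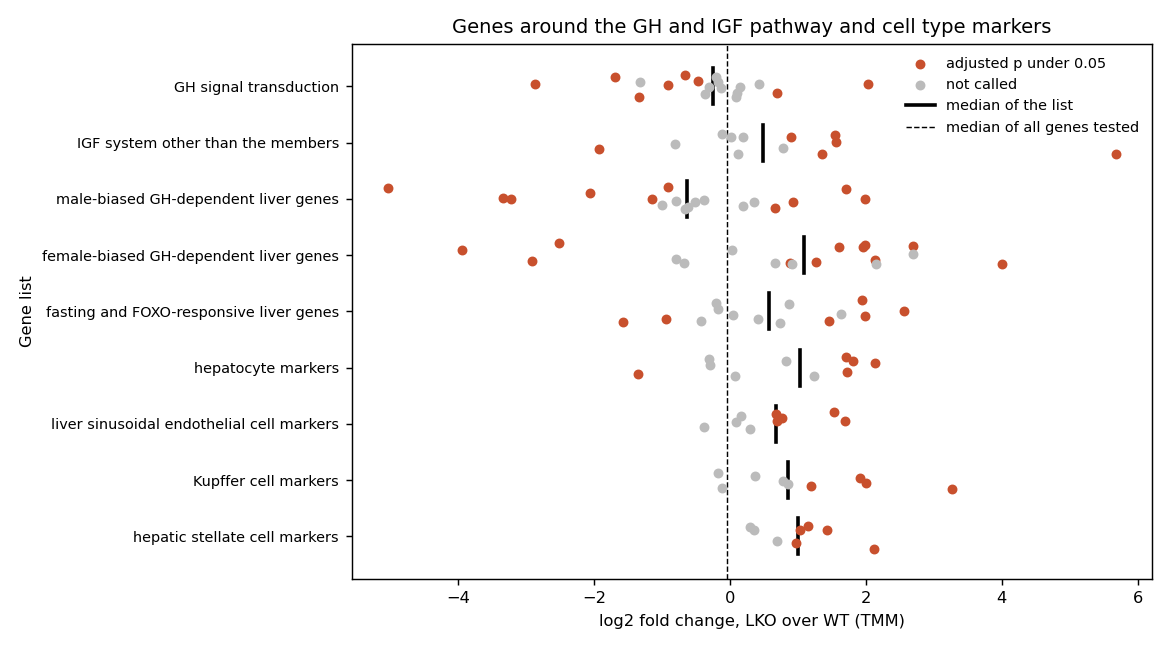
Log2 fold change of LKO over WT with TMM scaling for the genes of 9 lists, 1 point per gene tested, with called genes in red, a bar at the median of each list and a dashed line at that of all genes. Medians run from −0.64 for the male-biased genes to 1.10 for the female-biased genes, and the first 5 lists hold called genes on both sides of 0.

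Markers of other liver cells were read beside the binding protein genes, since *Igfbp3* and others are known to be made outside hepatocytes. Of 9 sinusoidal endothelial markers, 5 were called higher and 0 lower, with a summed level of 308 to 369 CPM in WT against 501 to 553 CPM in LKO mice. *Lyve1* and *Clec4g* were 1.70 and 1.53 higher on the log2 scale, while *Gpr182*, not called, was at −0.38 and *Kdr*, not called, at 0.09. Of 9 Kupffer cell markers, 4 were called higher and 0 lower, with 322 to 470 CPM in WT against 514 to 994 CPM in LKO mice. The largest rises were those of *Timd4* with 3.27 and *Marco* with 2.00. *Timd4* had read counts of 18, 6 and 209 in WT mice. It was not called without WT mouse 1 or 2 or LKO mouse 2 or 3 (adjusted p = 0.055 to 0.098, edgeR). *Adgre1* and *C1qc*, not called, were at −0.12 and −0.18, while the other markers not called were higher in LKO mice. Of 8 stellate cell markers, 5 were called higher and 0 lower, with 240 to 280 CPM in WT against 609 to 890 CPM in LKO mice, led by *Dcn* with 2.12 and *Ecm1* with 1.43. All calls in these 3 lists were higher after TMM, but with total counts 2 endothelial markers were called higher and 4 lower, 2 Kupffer markers higher and 2 lower, and 2 stellate markers higher and 1 lower, with medians of −0.18, −0.07 and 0.12. The summed levels of these lists stand beside a sum over all genes tested of 702000 to 779000 CPM in WT against 1230000 to 1570000 CPM in LKO mice. The part of these cells in the rise of *Igfbp3* was not tested. Of 10 hepatocyte markers, 4 were called higher, among them *Fgb* with 2.14 and *Apoa1* with 1.81, and 1 lower, *Ttr* with −1.35, and with total counts 4 were called higher and 4 lower. Their summed level, given above, had its largest part from *Alb*, at 19600 to 23800 CPM in WT against 60600 to 83800 CPM in LKO mice. Of 5 cholangiocyte markers 4 were tested, and 1 was called lower, *Spp1* with −1.09, which was not called without WT mouse 1 or LKO mouse 1 (adjusted p = 0.062 and 0.052, edgeR). The summed level, 32.9 to 50.1 CPM in WT against 13.4 to 29.9 CPM in LKO mice, was mostly *Spp1*, and *Krt19*, *Sox9* and *Epcam* had log2 fold changes of 1.00, 0.11 and 0.05, not called. Of 6 lymphocyte markers 2 were called lower, with 43.8 to 65.6 CPM in WT against 29.6 to 43.4 CPM in LKO mice. No marker of these lists was at 0 in all 6 mice.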

How the data were processed

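Liver RNA of 3 WT and 3 LKO mice was sequenced by the authors. According to the submitters' processing notes, bcl2fastq 2.20.0, FastQC 0.11.7, HISAT2 2.1.0, Bowtie2 2.3.4.1 and StringTie 2.1.3b were used on mm10. The methods describe a total RNA kit with removal of rRNA, whereas the labels name a stranded mRNA kit. Whether counting used strand, and which annotation, is not given in the sources used here. The authors deposited 1 table of read counts that were not normalized and that StringTie derives from coverage. The deposited FPKM are per kilobase and by library size, and the deposited TPM were brought by the authors to an equal sum in each mouse. No RNA integrity or batch per mouse was given.

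Genes were tested if at most 1 of the 6 mice had a count of 0, which is the filter of the methods. Counts were scaled by TMM and genotypes were compared in R 4.3.3 with edgeR 4.0.16 (glmQLFit and glmQLFTest, two-sided, p-values adjusted by Benjamini-Hochberg across the genes tested). The common biological coefficient of variation was 0.254. Standard errors were the absolute log2 fold change divided by the square root of F. Ratios and shares were compared with two-sided exact permutation tests (scipy 1.17.1). The text names all members, up to 3 called genes per direction of each pathway list and 2 of each marker list, by log2 fold change and with a mean of at least 1 CPM. Results for some genes that this rule selects are not reported here, and these genes stay in the counts. The members and lists were chosen with earlier results of these data known. Alternatives were edgeR's exactTest, DESeq2 1.42.0, other scalings, filters, a replicate block, a correction for gene length (lowess, span 0.3), limma 3.58.1 on log2(TPM + 1) and log2(FPKM + 1), and leaving out each mouse. On simulated counts of 18392 genes, the quasi-likelihood test recovered 190 of 200 genes that had been given a log2 difference of 2, with 18 false calls. Apart from these 200 genes, the simulated genotypes had the same composition. The simulation therefore does not cover the difference in library composition or the large share of called genes in the data. Gene coordinates and upstream sequences are from RefSeq, GRCm38.p6, the assembly that mm10 represents.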

Additional observations from a re-analysis of the deposited data

How the results depend on the processing

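Of 200 member values under alternatives, 178 kept direction and call, 8 were called anew, 5 lost the call and 9 reversed. *Socs2* reversed to −0.825 with total counts, −0.035 with the replicate block, −1.249 and −0.673 with limma on TPM and FPKM, and −0.385 and −0.736 without WT or LKO mouse 3. *Igfbp4* reversed to −0.317, −0.968 and −0.347 with total counts and limma on TPM and FPKM. With total counts, 1167 genes were higher and 9575 lower (10.9% of calls higher, against 49.0% with TMM). Limma on TPM called 13775 genes, 453 of them higher. *Pak4* passed with total counts (−1.543) and limma on TPM (−1.192) and FPKM (−0.767). Calls in the growth hormone signal list were 14 with total counts and both limma fits, against 8. Other list counts that moved were, for male-biased genes, 16 (limma on TPM), for female-biased genes, 7 (total counts), 17 (filterByExpr) and 6 (limma on FPKM), for fasting genes, 3 (total counts, limma on FPKM), for hepatocyte markers, 8 (total counts), for stellate markers, 3 (total counts) and 2 (limma on FPKM), for cholangiocyte markers, 2 (10 counts in every mouse), 3 and 2 (limma on TPM and FPKM), and for lymphocyte markers, 0 (10 counts in every mouse), 5 and 4 (limma on TPM and FPKM). The ratio of *Igfals* to *Igf1* was −2.387 with FPKM + 1. The share of *Igfbp5* differed by −0.141 points from counts and −0.329 with FPKM + 1, that of *Igfbp6* by −0.0998 with FPKM + 1, and that of *Igfbp7* by −8.24 from counts. The causes were not tested. Without each mouse in turn, *Pak4* was −1.084 to −0.497 and *Socs2* −0.736 to 0.633, 5617 to 7230 genes and 5 to 7 members were called, and 4 to 7 signal, 4 to 7 IGF system, 7 to 11 male-biased, 7 to 15 female-biased, 2 to 8 fasting, 3 to 6 Kupffer, 4 to 6 stellate and 0 to 1 cholangiocyte genes.

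Same-numbered WT and LKO mice did not deviate together (r = 0.05, −0.03 and −0.08 over genes), so no pairing by number was apparent. A pairing with small effects, such as by litter, could go unseen in this check. The replicate block gave 3129 genes higher and 3302 lower, with 3 members called in each direction. Counts of 0 to 5 in WT mice leave the fold change of *Igfbp6* imprecise.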
